A study of Mus musculus with 20 samples.

Results

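The regions described here were open during reprogramming of mouse embryonic fibroblasts (MEFs) in both paths that were followed, and were closed in the starting MEFs and in embryonic stem cells (ESCs). Accessible DNA was profiled by ATAC-seq, which uses the Tn5 transposase to cut and tag open chromatin, and open here means that a library had a peak in the region. Peaks of all 20 libraries that overlapped by 1 bp or more were merged into 335858 regions. The members were selected on these peaks: a member had no peak in the MEF library or in any of the 3 ESC libraries, and had a peak on at least 3 of 8 days in each path. This rule gave 7110 members. Of the regions closed in MEF and all ESC libraries, 5.48% met the day rule, and nothing is read from that share since the rule used these peaks.

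The cells were MEFs from embryos of a cross between OG2 and 129 mice, and OG2 mice carry an Oct4-GFP reporter. In both paths the MEFs were infected with pMXs retroviruses that carried Oct4 together with a NANOG protein, which was native Nanog in the Nanog+Oct4 path and NanogN70 in the NanogN70+Oct4 path. NanogN70, which the study calls NanogBiD, is NANOG with the BRG1-binding part of SS18 fused to its N-terminus. Each path had 1 library on each of 8 days, which were 0, 1, 3 and 5 in the first part of the course and 7, 8, 10 and 12 in the second, and day 0 followed the infections. Infected cells were kept in iCD3 medium and later in N2B27 medium with 2i and LIF, the medium of the ESCs. The study's methods place that switch after day 7 or at another chosen time, and the sample titles do not give it. Changes with time after the switch cannot be told apart from effects of the medium. The change to iCD3 came at day 0, after the infections, and 2262 members in Nanog and 4606 in NanogN70 had a peak on that day. For peaks that came later, the effects of iCD3 and of the factors cannot be told apart, since neither MEF nor ESC was grown in it. For the ESC samples the titles give ESC and the source fields give MEF, and the titles were followed. The counts of marker genes with a peak went with the titles: 29 or 30 of 30 pluripotency genes had a peak within 2 kb of a start site in each ESC library, against 21 in MEF, where Zfp42, Dppa4 and Dppa5a had none, and 29 of 29 fibroblast genes had one in MEF, against 20 to 25 in ESC. Single defining genes did not all separate the libraries, since Esrrb and Tdgf1 also had such a peak in MEF, and Thy1, Col1a1, Col1a2, Prrx1 and Twist1 had one in every ESC library as well as in MEF.

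In reprogramming, transcription factors close the enhancers of the somatic cell and open those of the pluripotent cell. OCT4 is a POU protein that reads DNA with 2 linked domains and binds an octamer alone, a composite site with SOX2, or palindromic sites as a dimer. SS18 is a subunit of the BAF complex, whose ATPase BRG1 moves nucleosomes. Regions that open and close again on the way between cell types are known from several reprogramming systems, and AP-1 sites mark much of the open chromatin of fibroblasts.

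Peak numbers were 44126 to 107038 over the NanogN70 libraries and 48843 to 91745 over the Nanog libraries, against 125467 in MEF and 97450 to 116006 in ESC. Sequencing depth is unknown, so a region without a peak may have been open below the limit of that library. The library of NanogN70 on day 3 differed from the rest: 23.3% of the regions with a peak there had none in any other library, against 1.45% to 14.3% in the other 15 time course libraries. Its median pileup over the 14217 regions open in all libraries was 60 tags, against 16 to 41 tags in those 15. Without this library the rule gave 6150 members on 3 of 7 NanogN70 days, so that 960 members (13.5%) were lost.

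Sequences of 12 members are shown, 101 bases about the summit of the highest-scoring peak, from the plus strand of GRCm38 (mm10). The first 4 had the highest mean score of the members open in all 16 time course libraries, and in them capitals mark a match to any of the 28 transcription factor motifs searched.
Slc8a2 intron, chr7:16134969-16135069: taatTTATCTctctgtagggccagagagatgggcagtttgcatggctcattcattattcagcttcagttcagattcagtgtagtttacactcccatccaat
Intergenic, nearest to Tmem130, chr5:144703850-144703950: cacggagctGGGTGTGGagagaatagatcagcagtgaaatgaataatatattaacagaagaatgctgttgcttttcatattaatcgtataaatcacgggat
Dars exon, chr1:128405100-128405200: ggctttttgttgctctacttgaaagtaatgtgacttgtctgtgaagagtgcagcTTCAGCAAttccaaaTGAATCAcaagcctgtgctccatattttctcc
Mad1l1 intron, chr5:140249559-140249659: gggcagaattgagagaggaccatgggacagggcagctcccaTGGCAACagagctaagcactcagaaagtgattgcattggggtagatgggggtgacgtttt
The next 4 were the members open in most libraries that held part of a POU dimer site, the letters ATGCATAT on either strand, the motif with the highest ratio to all regions, and in these and the last 4 capitals mark the octamer, the partial dimer site or the 8-letter word described with the motifs.
Tbc1d22a intron, chr15:86328576-86328676: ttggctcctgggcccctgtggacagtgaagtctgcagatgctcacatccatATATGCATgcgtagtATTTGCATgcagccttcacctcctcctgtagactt
Mir99ahg intron, chr16:77536541-77536641: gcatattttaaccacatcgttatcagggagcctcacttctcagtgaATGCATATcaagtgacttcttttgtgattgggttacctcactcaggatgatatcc
Intergenic, nearest to Pmfbp1, chr8:109472599-109472699: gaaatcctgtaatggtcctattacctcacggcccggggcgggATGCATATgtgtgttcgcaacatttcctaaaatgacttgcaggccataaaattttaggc
Intergenic, nearest to Vstm2b, chr7:40699456-40699556: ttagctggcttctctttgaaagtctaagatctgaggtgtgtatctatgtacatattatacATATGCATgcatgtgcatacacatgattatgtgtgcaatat
The last 4 were the members open in most libraries that held the 8-letter word.
Intergenic, nearest to Nampt, chr12:32724574-32724674: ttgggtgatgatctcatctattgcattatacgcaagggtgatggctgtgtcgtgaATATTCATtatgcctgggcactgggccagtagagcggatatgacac
Intergenic, nearest to Mtx2, chr2:74975146-74975246: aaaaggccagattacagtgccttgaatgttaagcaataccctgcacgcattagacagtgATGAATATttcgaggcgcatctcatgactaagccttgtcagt
Intergenic, nearest to Mroh5, chr15:73897806-73897906: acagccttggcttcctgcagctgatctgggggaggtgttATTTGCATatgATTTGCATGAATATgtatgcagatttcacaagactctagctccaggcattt
Intergenic, nearest to Chd1l, chr3:97507355-97507455: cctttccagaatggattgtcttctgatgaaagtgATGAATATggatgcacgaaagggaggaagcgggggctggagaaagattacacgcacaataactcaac
The member in Tbc1d22a held a partial dimer site and an octamer, and the one nearest to Mroh5 held 2 octamers, the second of which overlapped the 8-letter word. None of the first 4 held an octamer or a partial dimer site in this window.

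The number of open members was highest on day 5 in both paths. In Nanog+Oct4, 2262, 4119, 5088, 6400, 6284, 4887, 2546 and 1659 members were open on the 8 days from day 0 to day 12. In NanogN70+Oct4, 4606, 5398, 5521, 6368, 5227, 3107, 1041 and 1245 were open on the same days. The NanogN70 libraries thus held more open members through day 3 and fewer from day 7 on. The fall in both paths over the later days and the switch of medium cannot be told apart. The number of peaks also differed between days, with 69575, 65872, 60077, 91745, 84526, 76740, 50716 and 48843 in Nanog and 107038, 77662, 84172, 83245, 80881, 55339, 44126 and 54272 in NanogN70. As a share of the regions open in each library, members made up 3.80%, 7.61%, 10.3%, 8.65%, 8.77%, 7.45%, 6.09% and 4.04% in Nanog and 4.85%, 8.07%, 7.20%, 8.92%, 7.46%, 6.52%, 2.74% and 2.57% in NanogN70. By that share the highest day was day 3 in Nanog and day 5 in NanogN70. On day 5, 5862 members (82.4%) were open in both paths, and on day 12, 933 (13.1%) were. On days 10 and 12, 3828 members (53.8%) had no peak in either path. All of these counts describe peaks that the rule used, and in bulk libraries fewer cells with an open region and less accessibility per cell cannot be told apart.

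**Figure D1:**
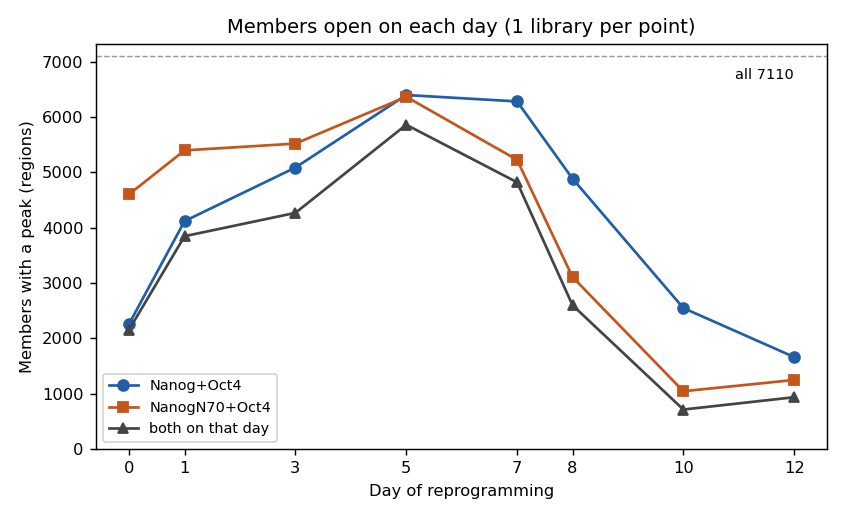
Number of members (y axis, regions) with a peak on each day (x axis) in Nanog+Oct4 (circles), in NanogN70+Oct4 (squares) and in both on the same day (triangles), 1 library per point. The dashed line marks all 7110 members. Both paths peaked on day 5, with 6400 and 6368 members, and the NanogN70 curve fell earlier.

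The median member was open on 4 days in each path. In 3730 members (52.5%) the open days formed 1 unbroken run in both paths. Only 39 members (0.549%) were open on all 8 days in both paths. More open days in NanogN70 were seen for 2413 members, more in Nanog for 2738, and equal numbers for 1959.

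Member peaks were of modest height. The median pileup of open members was 7 to 10 tags in the Nanog libraries and 8 to 10 tags in the NanogN70 libraries, which was 0.25 to 0.438 and 0.15 to 0.563 times the median of the regions open in all libraries. The lowest ratio was that of NanogN70 day 3. The mean score over open libraries, where the MACS score is -10 log10 of the p-value and starts at 50, had a median of 148 over members, 126 over the ESC-open set and 164 over the MEF-open set. The ESC-open set holds the 2565 regions that met the same day rule, were closed in MEF and were open in at least 2 ESC libraries (4.63% of regions with that end point pattern). The MEF-open set holds the 6854 regions that met the day rule, were open in MEF and were closed in all ESC libraries (9.19%). The median member was 543 bp wide.

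Just inside the threshold, the 696 members open on exactly 3 days in both paths had a median of 106 in mean score and of 420 bp in width. Just outside it, 4755 regions closed in MEF and ESC were open on 2 days in 1 path and on 3 or more in the other, with a median mean score of 114 and a median width of 419 bp. A further 552 regions met the day rule and were closed in MEF but open in 1 ESC library.

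Members were not confined to the weakest peaks. Of the regions that met the day rule, members made up 15.4% at mean scores of 50 to 75, 23.1% at 150 to 200, 19.9% at 200 to 300 and 3.83% at 300 and over, where 94.0% were open in MEF. A MEF or ESC peak lay within 500 bp of 864 members (12.2%), and the median distance to one was 3405 bp.

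The end point calls were then scored in libraries left out of the rule. With 1 ESC library left out, 2.17%, 3.75% and 1.62% of the regions so chosen were open in it, a mean of 2.51% ± 1.11 (SD, n = 3). Exact 95% intervals, which cover counting error only, were 1.85% to 2.54%, 3.33% to 4.21% and 1.34% to 1.94%. Closure in ESC was therefore repeated in each replicate for all but a few percent of the regions. For MEF there was no second library, and 49.1% of the regions chosen without it were open in it, with an interval of 48.3% to 49.9%. Closure in MEF thus rests on 1 library with no replicate check.

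Opening was scored in the same way: each time course library was left out in turn, the rule was applied to the other 7 days of its path and to the other path, and the share of the regions so chosen that were open in the library left out was taken. In Nanog+Oct4 this share was 28.7%, 53.8%, 68.3%, 87.4%, 85.6%, 65.1%, 33.8% and 20.5% on the 8 days in order. In NanogN70+Oct4 it was 59.8%, 71.6%, 74.2%, 87.2%, 70.05%, 41.4%, 13.6% and 15.7%. The share was thus highest on day 5 in both paths in libraries left out of the day rule. Their peaks were still part of the merge that set the regions. With the 44126 top peaks of each library it was 28.5%, 51.9%, 71.2%, 74.8%, 80.2%, 67.7%, 54.7% and 40.3% in Nanog, highest on day 7, and 42.5%, 57.6%, 58.3%, 78.4%, 70.7%, 61.6%, 35.6% and 33.5% in NanogN70, highest on day 5. Since a different library was left out for each path, the regions scored were not the same in both. On day 0 they numbered 6798 in Nanog and 6227 in NanogN70. The path difference, NanogN70 minus Nanog, was 31.1 percentage points on day 0, -0.242 on day 5 and -23.7 on day 8. It averaged 13.6 points over days 0 to 5 and fell to -16.1 points over days 7 to 12, a split of the days made with these values known and not tested. With the 44126 top peaks of each library these averages were 2.57 and -10.4 points, so that most of the early excess was not present, and the day 3 difference turned from 5.84 to -12.9 points. Averaged over the 8 days, NanogN70 minus Nanog was -1.22 points (lower on 5 of 8 days), and the difference did not pass the test (exact sign-flip permutation test, two-sided, p = 0.859, adjusted p = 0.859 over 5 tests by Benjamini-Hochberg).

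**Figure D2:**
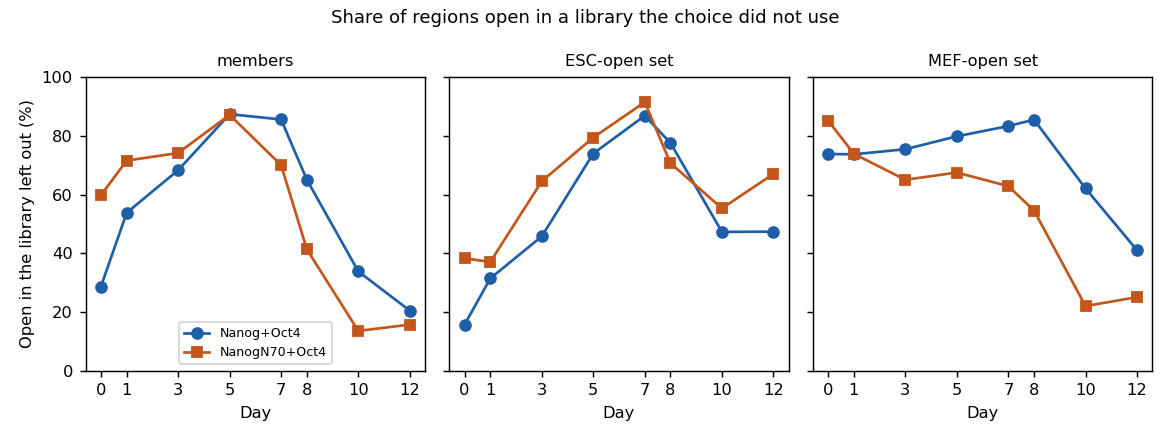
Share of regions open in a library that was left out of the day rule (y axis, percent) by day (x axis) for members, the ESC-open set and the MEF-open set, in Nanog+Oct4 (circles) and NanogN70+Oct4 (squares), 1 library per point. Members rose to 87.4% and 87.2% on day 5 and fell to 20.5% and 15.7% on day 12, while the MEF-open set began at 73.8% and 85.2%.

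The path difference of members was set against that of both other sets. For the MEF-open set the mean shares were 71.9% in Nanog and 57.02% in NanogN70, a difference of -14.8 points (lower on 6 of 8 days, exact permutation p = 0.0469, adjusted p = 0.0781). The path difference of members lay 13.6 points above that of the MEF-open set, in the same direction on 8 of 8 days (exact permutation p = 0.00781, the smallest that 8 days can give, adjusted p = 0.0391). This difference did not hold with at least 4 days required (9.82 points, exact permutation p = 0.0156, adjusted p = 0.0781). Without day 3, and so without the NanogN70 day 3 library, it was 12.0 points (exact permutation p = 0.0156, the smallest that 7 days allow, adjusted p = 0.0781). With each day left out in turn, it missed the threshold in 7 of 8 cases at that adjusted p and passed without day 8. For the ESC-open set the mean shares were 53.3% and 63.0%, a difference of 9.73 points (higher on 7 of 8 days, exact permutation p = 0.0391, adjusted p = 0.0781). With the 44126 top peaks of each library it was 4.08 points (exact permutation p = 0.148, adjusted p = 0.225). With all peaks, the path difference of members lay 10.9 points below that of the ESC-open set (lower on 6 of 8 days). This did not pass the test (exact permutation p = 0.0859, adjusted p = 0.107). Days are successive samples of 1 course per path, so these p-values measure the spread between days and not between cultures. The daily differences also share most of the libraries that chose the regions, which the sign flip does not take into account. At 31355 regions open in MEF and all ESC libraries, NanogN70 minus Nanog averaged 2.59 points. That difference was 11.1 points on day 0, where the NanogN70 library had 107038 peaks and the Nanog library 69575, and its part in the day 0 difference of members was not tested.

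Summits of members were compared between the paths, within merged regions that bound how far apart they can lie. The median distance between the median summit in Nanog and that in NanogN70 was 27.5 bp, and 66.4% of members had them within 50 bp, against 73.1% of the ESC-open set and 70.6% of the MEF-open set.

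Members were distal and AT-rich. A transcription start site lay within 2 kb of 13.1% of members (exact 95% interval 12.3% to 13.9%), against 19.3% of all regions, 25.6% of the ESC-open set and 17.1% of the MEF-open set. Of the members, 45.3% lay in introns, 35.6% between genes and 6.02% on other exons, and the median distance to a protein-coding start site was 30621 bp, against 21467 bp over all regions. The median GC content within 25 bp of the summit was 47.1%, against 52.9% in the ESC-open set and 50.98% in the MEF-open set and in all regions. Among other regions closed in MEF and ESC the median GC content was also 47.1%, and 14.4% lay near a start site. By chromosome, 1.77% to 2.39% of the regions on each autosome were members, against 1.19% on the X chromosome.

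The octamer and part of a POU dimer site had the highest ratios between members and all regions. The search covered 28 consensus motifs on both strands within 25 bp of the summit. The partial dimer site, searched as ATGCATAT, holds 8 of the 12 letters of the palindrome ATGCATATGCAT that POU dimers bind. The whole palindrome was found in 2 of 7108 members and 20 of 335775 regions, so the matches are described by their 8 letters alone. The partial dimer site was present in 1.15% of 7108 members (exact 95% interval 0.919% to 1.43%), against 0.362% of all regions, 0.235% of the ESC-open set and 0.277% of the MEF-open set, and its ratio to all regions, 3.19, was the highest of the 28. The octamer, the letters ATGCAAAT, was present in 1.59% of members (1.31% to 1.91%), against 0.665% of all regions, and in 1.68% of the ESC-open set and 0.642% of the MEF-open set. For the octamer, members and the ESC-open set did not differ beyond the interval over all windows, while the partial dimer share of both other sets lay below the interval of members. Among other regions closed in MEF and ESC, the octamer was present in 0.887% and the partial dimer site in 0.668%, both below the intervals of members. One or the other was present in 2.70% of members and in 1.02% of all regions.

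The shares of both motifs moved with base composition. In windows below 40% GC the octamer or the partial dimer site was present in 3.71% of members (2.85% to 4.74%), 2.80% of all regions and 3.44% of other regions closed in MEF and ESC. At 40% to 50% GC the shares were 3.51% (2.88% to 4.24%), 1.30% and 1.52%, and at 50% GC and over they were 1.11% (0.737% to 1.60%), 0.330% and 0.388%. In the ESC-open set the shares were 4.72%, 3.70% and 0.913% in the same order. Members thus lay above all regions beyond the interval in each range, narrowly below 40% GC, where they did not differ from other closed regions beyond it. They did not differ from the ESC-open set beyond the intervals in any of these ranges.

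All 8-letter words near the summit were counted as well, with the motif results known. Of the 20 words with the highest ratios, 4 were within 1 letter of the octamer or the partial dimer site, compared without a shift. Of 74 words present in at least 60 members, the one with the highest ratio to all regions was ATGAATAT on one strand and ATATTCAT on the other, which differs from the partial dimer site in 1 letter. It was present in 1.46% of members (exact 95% interval 1.197% to 1.77%), against 0.323% of all regions, 0.274% of the ESC-open set, 0.277% of the MEF-open set and 0.624% of other regions closed in MEF and ESC. In windows below 40% GC it was present in 4.19% of members (3.28% to 5.28%), 1.41% of all regions and 1.78% of other regions closed in MEF and ESC. With the 44126 top peaks of each library it was present in 0.837% of members and 0.347% of all regions. The word was chosen on these sequences, so its share is a description.

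Matches to the octamer or the partial dimer site were most frequent near the summits. They numbered 13.8 per 1000 members in each 20 bp bin within 40 bp of the summit, against 3.27 at 300 to 500 bp, a ratio of 4.20. That ratio was 3.402 in the ESC-open set and 1.38 in the MEF-open set. For the 8-letter word it was 4.37 in members, 2.14 in the ESC-open set and 1.48 in the MEF-open set, and since the word was chosen for its share near these summits, these ratios are a description. AP-1 had a ratio of 3.15 in members, 1.25 in the ESC-open set and 8.64 in the MEF-open set.

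**Figure D3:**
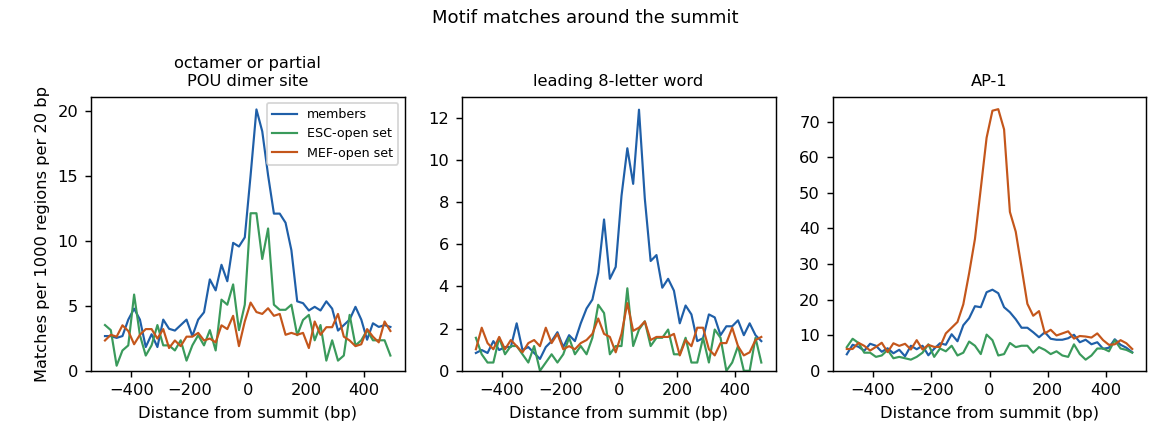
Motif matches per 1000 regions in 20 bp bins (y axis) by distance from the summit of the highest-scoring peak (x axis, bp) for the octamer or partial POU dimer site, the 8-letter word with the highest ratio, and AP-1, in members, the ESC-open set and the MEF-open set. Members had the highest curves for the first motif and for the word, with 20.1 matches for the first motif in the bin centred at 30 bp, and the MEF-open set had the highest curve for AP-1.

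Shares of the other motifs were compared in the same way. The AP-1 site TGANTCA, bound by JUN and FOS proteins, was present in 4.85% of members (exact 95% interval 4.37% to 5.38%), against 6.12% of all regions, 1.995% of the ESC-open set and 14.9% of the MEF-open set. The E-box CAGCTG, bound by basic helix-loop-helix proteins, was present in 7.23% of members (6.64% to 7.86%) and 4.58% of all regions. The ESC-open share, 6.22%, lay below that interval, and the MEF-open share, 7.09%, lay within it. At 50% GC and over the E-box was present in 12.4% of members (11.2% to 13.8%) and in 9.28% of the MEF-open set, a share below the interval. In the other GC ranges the MEF-open share lay within the interval of members. The NANOG site CCATTA was present in 3.29% of members and 2.09% of all regions. The homeodomain core TAATTA was present in 1.55% and 0.838%. The SOX site CCATTGT was present in 1.10% of members (0.868% to 1.37%) and 0.896% of all regions, which did not differ beyond the interval. The KLF site was present in 1.42% of members and 2.63% of all regions, and the CTCF site, searched as AGNGGGCGC, in 0.0563% of members (4 regions), 0.355% of all regions and 1.10% of the ESC-open set. Among other regions closed in MEF and ESC the shares were 4.74% for AP-1, 1.33% for the homeodomain core, 0.912% for SOX, 1.52% for KLF and 0.0652% for CTCF, and over all windows members did not differ from them beyond the intervals for these 5 motifs. Split by GC content, 3 differences lay beyond the interval of members. SOX was present in 1.26% of members (0.867% to 1.78%) and 0.658% of the other closed regions at 50% GC and over, the homeodomain core in 1.74% (1.30% to 2.28%) and 566 of 47168 at 40% to 50% GC, a share below that interval, and AP-1 in 4.68% (3.71% to 5.82%) and 5.93% below 40% GC. The split was not made for KLF and CTCF. In the other closed regions the E-box, at 5.02%, lay below the interval of members over all windows and in each GC range. The NANOG site, at 2.79%, lay below it over all windows and, of the 3 GC ranges, only at 50% GC and over, where it was present in 2.17% of members (1.64% to 2.82%) and 1.56% of the other closed regions.

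Members that opened early were compared in sequence with those that opened late. Early members, open on day 0 or 1 in both paths and closed on days 10 and 12 in both, numbered 2625 (36.9%). Late members, open on day 10 or 12 in both paths and closed on days 0 and 1 in both, numbered 521 (7.33%). Members open at both ends of the course in both paths numbered 403 (5.67%), those closed at both ends 356 (5.01%), and 3205 fell in none of these classes, which were defined with the members' days known. The median GC content was 43.1% in early and 54.9% in late members. AP-1 was present in 6.86% of early (5.92% to 7.89%) and 1.73% of late members (0.796% to 3.27%). The octamer or partial dimer site was present in 3.35% of early (2.70% to 4.11%) and 1.35% of late members (0.544% to 2.76%), with overlapping intervals, and in 3.97% of members open at both ends (2.29% to 6.37%). The E-box was present in 4.42% of early (3.67% to 5.28%) and 12.3% of late members (9.63% to 15.5%). At 50% GC and over, AP-1 was present in 6.63% of early (4.74% to 8.99%) and 1.61% of late members (0.593% to 3.47%), and the E-box in 7.85% (5.79% to 10.4%) and 14.5% (11.1% to 18.5%). For AP-1 and the E-box the early and late intervals did not overlap in that range. At 40% to 50% GC they overlapped, with AP-1 in 8.30% of early (6.78% to 10.03%) and 2.42% of late members (0.502% to 6.91%) and the E-box in 4.36% (3.27% to 5.70%) and 8.06% (3.94% to 14.3%). Below 40% GC, where only 22 members were late, they overlapped as well. For the octamer or partial dimer site the early and late intervals overlapped in windows below 40% GC, at 40% to 50% GC and at 50% GC and over.

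**Figure D4:**
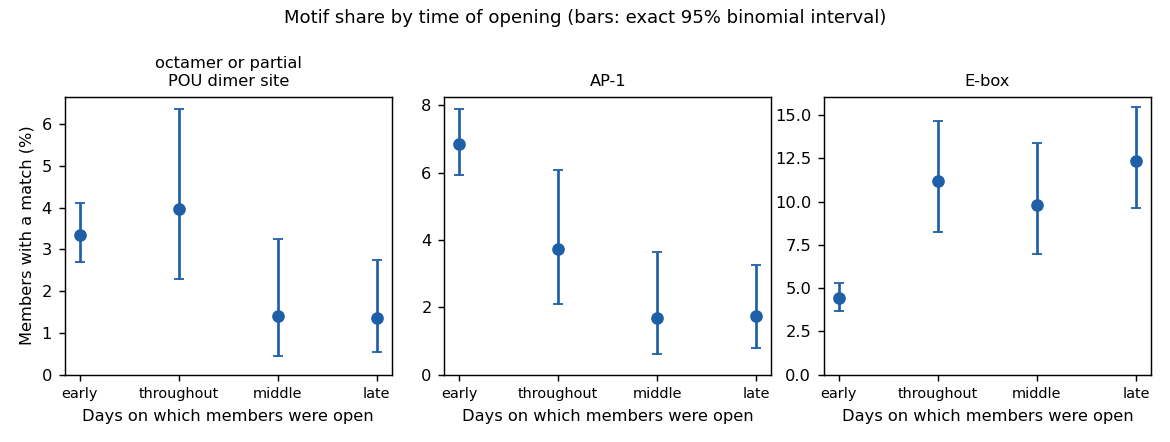
Share of members with a motif within 25 bp of the summit (y axis, percent) for members open early, throughout, in the middle and late (x axis), for the octamer or partial POU dimer site, AP-1 and the E-box. Points are shares and bars are exact 95% binomial intervals. AP-1 was highest in early members at 6.86%, and the E-box was lowest there at 4.42%.

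The 12 members open in all 16 time course libraries with the highest mean scores were traced by pileup, the number of tags at the summit, which is not scaled to depth. Over the regions open in all libraries the median pileup was 16, 16, 23, 28, 38, 32, 23 and 24 tags on the 8 days in Nanog. In NanogN70 it was 24, 16, 60, 23, 38, 26, 28 and 41 tags. A member in an intron of Slc8a2 (chr7:16134524-16135613), which encodes a sodium-calcium exchanger, had 10, 18, 36, 70, 77, 57, 32 and 25 tags on the 8 days in Nanog and 25, 33, 37, 55, 58, 32, 18 and 39 in NanogN70. Its highest unscaled pileup fell on day 7 in both paths, where that median was 38 tags, against 28 and 23 on day 5. A member between genes 57229 bp from the nearest start site, that of Tmem130 (chr5:144703221-144704420), had 9, 9, 25, 49, 50, 36, 17 and 12 tags in Nanog and 27, 15, 17, 28, 28, 23, 12 and 9 in NanogN70. The days with most tags were again 5 and 7.

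A member over an exon of Dars (chr1:128404624-128405610), the aspartyl-tRNA synthetase, had 7, 11, 23, 43, 45, 31, 31 and 19 tags in Nanog and 19, 17, 16, 27, 45, 19, 13 and 32 in NanogN70. A member in an intron of Mad1l1 (chr5:140248990-140250231), a component of the spindle checkpoint, had 30, 29, 43, 44, 49, 38, 17 and 9 tags in Nanog and 62, 39, 30, 45, 39, 20, 10 and 10 in NanogN70. The Mad1l1 member thus had its highest NanogN70 pileup on day 0. A member 30546 bp from the start site of Anxa2 (chr9:69517329-69518547), a membrane-binding annexin, had 5, 12, 33, 42, 67, 58, 31 and 15 tags in Nanog and 9, 7, 18, 18, 41, 25, 11 and 12 in NanogN70. The member nearest to Gm8797 (chr3:5754656-5755528) had 5, 9, 27, 41, 28, 9, 7 and 23 tags in Nanog and 24, 16, 23, 43, 33, 17, 16 and 36 in NanogN70, so that its pileup was higher on day 12 than on day 10 in both paths.

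**Figure D5:**
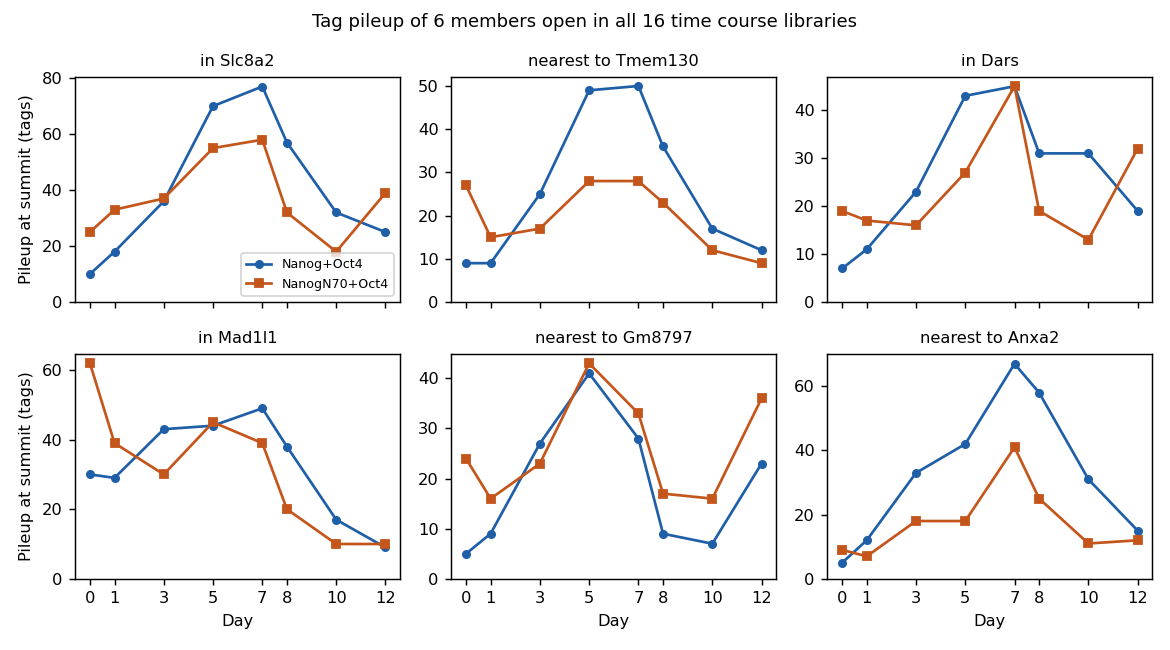
Tag pileup at the summit (y axis, tags, not scaled to depth) by day (x axis) for 6 members open in all 16 time course libraries, in Nanog+Oct4 (circles) and NanogN70+Oct4 (squares), 1 library per point. Most curves are highest on day 5 or 7, such as that of Slc8a2 with 77 tags in Nanog and 58 in NanogN70, and the NanogN70 curve of Mad1l1 is highest on day 0 with 62 tags.

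The other 6 of the 12 lay within 2 kb of a start site of Sumf1, in introns of Lncpint, Fam126a and Shank2, and between genes nearest to Bod1 and Tab2. Their mean scores were 437 to 567.

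Members with the largest excess of open days in 1 path were open on all 8 days in it and on 3 in the other. The 4 with more days in NanogN70 lay in introns of Ebf4 and of Fgfr2, the FGF receptor gene, between genes nearest to Fam222a, and within 2 kb of the start of Cxxc4, which encodes a CXXC-domain protein that restrains Wnt signalling. The Cxxc4 member (chr3:134238565-134239423) had 31, 19, 17, 18, 34, 16, 14 and 25 tags in NanogN70, and in Nanog it had 7, 9 and 13 tags on days 0, 7 and 12 and no peak on the other days. It held an octamer near its summit. The Ebf4 member (chr2:130351500-130352395) had 19, 20, 28, 39, 57, 14, 7 and 7 tags in NanogN70 and 9, 12 and 15 tags on days 3, 5 and 7 in Nanog. The 2 tracks of the Ebf4 member were thus both highest on day 7 in unscaled tags.

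The 4 with more days in Nanog lay nearest to Mc3r, the melanocortin 3 receptor, on an exon of Pkd2l2, in an intron of the noncoding gene Gm14005, and near Npas3, a neuronal transcription factor. The Mc3r member (chr2:172269914-172271318) had 6, 12, 26, 41, 34, 17, 10 and 9 tags in Nanog and 7, 6 and 7 tags on days 1, 5 and 7 in NanogN70. The Gm14005 member (chr2:128294672-128295499) had 6 to 21 tags in Nanog and 7, 41 and 7 tags on days 1, 3 and 8 in NanogN70, with the most on day 3. In NanogN70 the Pkd2l2 member was open on days 0, 1 and 3 alone and the Npas3 member on days 3, 5 and 7 alone, so that 3 of the 4, all but the Mc3r member, would not meet the rule without the NanogN70 day 3 library. Since these members were chosen for their difference, the values are a description.

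Members near genes known for pluripotency or for other lineages were counted against the share of all regions near the same genes. Genes of 12 lists were assigned to a region when theirs was the nearest protein-coding start site within 100 kb. For pluripotency genes 8 members (0.113%) were found, against 0.211% of all regions, and 3 of the 8 lay on exons of Nanog. The others lay nearest to Esrrb, Etv5, Klf5, Tdgf1 and Tet2. The fibroblast and mesenchymal list had 14 members (0.197%, against 0.234% of all regions), of which 4 were nearest to Postn, which encodes the matrix protein periostin. The list of Wnt and LIF response genes had 14 members (0.197%, against 0.244%), with 3 nearest to Lifr, the LIF receptor gene. The neural list had 11 members (0.155%, against 0.156%), among them 3 nearest to Irx3 and 3 to Myt1l.

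The share was likewise at or below that of all regions for AP-1, TGF-beta and signalling response genes (0.155% against 0.213%), endoderm genes (0.127% against 0.151%), BAF subunits (0.127% against 0.155%), epithelial genes (0.0844% against 0.135%), leukocyte genes (0.0844% against 0.098%), trophoblast genes (0.0703% against 0.145%), mesoderm and heart genes (0.0703% against 0.166%), and interferon and inflammation genes (0.0281% against 0.0724%). For the neural, leukocyte, fibroblast, endoderm, BAF and Wnt and LIF lists the shares were 0.808 to 0.990 times those of all regions, which is no result about the members, and each of the 12 counts rests on 2 to 14 members. In the ESC-open set 0.507% of regions were nearest to a pluripotency gene, and in the MEF-open set 0.394% were nearest to a fibroblast gene.

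Within 2 kb of a start site of a listed gene there were 12 members (0.169%), against 0.302% of all regions. The one open in most libraries lay over a start site of Smarca2 (chr19:26769421-26771020), which encodes BRM, the BAF ATPase related to BRG1. It had no peak on day 0 and 4, 14, 21, 22, 17, 14 and 11 tags on the later days in Nanog, and 8, 7, 12, 22, 26, 13, 14 and 27 tags in NanogN70. A member over a start site of Smarca4 (chr9:21635318-21635922), the gene of BRG1, had 7, 6, 14, 7 and 8 tags on days 3, 5, 7, 8 and 10 in Nanog and 8, 14, 6 and 9 tags on days 5, 7, 8 and 10 in NanogN70. Both ATPase genes thus had a member at an annotated start site that also overlapped a coding exon of the gene. In Nanog both had most tags on day 7, the Nanog library with the highest median pileup over regions open in all libraries (38 tags).

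A member 946 bp from the start of Lama1 (chr17:67698211-67698882), a laminin chain of basement membranes, was closed on days 0 and 1 in Nanog and had 6, 8, 9, 11, 21, 12, 14 and 23 tags in NanogN70. A member 27 bp from the start of Tdgf1 (chr9:110944898-110945626), a co-receptor of Nodal, had 4, 9, 10 and 5 tags on days 0, 5, 7 and 8 in Nanog and 21, 16, 19, 20, 28 and 10 tags on days 0 to 8 in NanogN70, and no peak on days 10 and 12 in either path. MEF and each ESC library had a peak elsewhere within 2 kb of a Tdgf1 start site. A member 1580 bp from the start of Dusp4 (chr8:34804545-34805717), a MAP kinase phosphatase, had 74 tags in the NanogN70 day 3 library, against 11 to 36 in the other NanogN70 libraries and 11 to 14 on its 3 open days in Nanog. Other members lay near the starts of Rsad2, Lck, Rab25 and Dab2.

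The gene with most members was Tbc1d22a, with 13 of the 46 regions nearest to its start, which was noticed after the values were seen. These 13 members spanned 129 kb on chromosome 15, 11 of them in introns, and were open in 6 to 15 libraries. The member open in 15 (chr15:86328006-86329051) had 12, 21, 22, 25, 28, 13, 8 and 10 tags in Nanog and 33, 24, 36, 41, 34, 10 and 5 on days 0 to 10 in NanogN70, and it is the one whose partial dimer site and octamer are printed above. No octamer or partial dimer site was found near the summits of the other 12.

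The vectors carried Nanog, and 3 members lay on exons of Nanog, where tags from vector DNA map as well. The member on the first of these (chr6:122707727-122708025) had 511, 245, 79, 6, 16 and 11 tags on days 0 to 8 and 7 tags on day 12 in Nanog and 366, 220, 39 and 6 on days 0 to 5 in NanogN70. The others had 559 and 390 tags on day 0 in Nanog and 428 and 332 in NanogN70. Among members with a peak on day 5 in both paths, they were the only 3 with at least 5 times as many tags on day 0 as on day 5 in both paths. Chromatin and vector tags cannot be told apart there, and 7107 members remained without them. No member lay on an exon of Pou5f1 or Ss18.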

How the data were processed

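ATAC-seq libraries were made from MEFs, ESCs and infected MEFs. Per the labels and the study's methods, the authors trimmed reads with Trim Galore 0.6.4, aligned them to mm10 with Bowtie2 2.4.5, filtered them with SAMtools 1.16.1 and called peaks in each library with MACS 1.4.2, with no shift model and keeping duplicates, and no input is named. Deeper libraries pass the peak threshold at more sites, and kept duplicates add to the pileup. The authors deposited 1 peak list and 1 summit list per library. The deposited score of a peak is -10 log10 of its p-value, with 50 as the lowest. The deposited signal of a summit is its pileup in tags, unscaled, and depth per library is not given in the sources used here.

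Peaks were merged and members chosen as stated in the report. The members, motif and gene lists were chosen with earlier results of these data known. Sequence was GRCm38 and annotation GENCODE M21, and 2 members on other sequences had no window. Motifs were searched within 25 bp of the summit. Intervals are exact (Clopper-Pearson, 95%) and cover counting error only. Left-out shares were compared between paths by flipping the sign of the 8 daily differences in every combination, with Benjamini-Hochberg adjustment over 5 tests.

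Members were named by rule: the 12 open in most libraries with ties by mean score, the 4 with the largest excess of open days in each path, up to 10 within 2 kb of a start site of a listed gene, and those on exons of vector genes. Of the 12 broadest, the sequences of the first 4 are printed. The scripts recovered planted regions and motifs in simulated data. Python 3.11.15, NumPy 2.4.6, SciPy 1.17.1 and Matplotlib 3.10.9 were used.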

Additional observations from a re-analysis of the deposited data

Results flagged for a closer look

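The path difference of members in the left-out libraries, NanogN70 minus Nanog, exceeded that of the MEF-open set by 13.6 percentage points, in the same direction on 8 of 8 days (exact permutation test, p = 0.00781, adjusted p = 0.0391 over 5 tests). This is a difference between 2 sets of regions under the same contrast. It was 12.7 points with a minimum score of 100, 12.0 points with 44126 peaks per library and 9.82 points with at least 4 days, where the adjusted p was 0.0781. Dixon's test for a single library far from the others was run in 8 groups of 8 libraries, on the share of members open and on their pileup, and none passed its critical value. The rule used these peaks, and the libraries of a path are successive days that change with time. Nothing is therefore read from that outcome. The test did not cover the measures in which the NanogN70 day 3 library stood apart, which were its 23.3% of regions open in no other library and its median pileup of 60 tags over regions open in all libraries. In that library the median pileup of open members was 0.150 times this value, the lowest of the 16.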

How the results depend on the processing

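The 7110 members became 3258 with a minimum score of 100, 13932 with at least 2 days and 4021 with at least 4 days. Leaving out a day or the NanogN70 day 3 library gave 4726 (without day 5) to 6833, and leaving out an ESC replicate gave 7227 to 7387. Summit windows, equal peak numbers, a 100 bp overlap and the exclusion of members near an end point peak kept the count within 1.5 times.

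The left-out path difference of members changed sign with a minimum score of 100 (0.477 points), with at least 2 days (0.504), without day 8 (1.029) and without day 10 (1.15), and ranged from -4.51 to 1.15 with a day left out. The excess over the MEF-open set kept its direction in all alternatives run. It missed the threshold with at least 4 days (9.82, exact permutation, adjusted p = 0.0781). With a day left out it ranged from 10.1 to 13.97 and missed the threshold in 7 of 8 cases (exact permutation, adjusted p = 0.0781), passing without day 8, where 7 days allow no exact p below 0.0156. The MEF-open difference passed with equal peak numbers (-15.9), summit windows (-14.7) and at least 2 days (-15.6), and ranged from -15.7 to -11.5 with a day left out. The ESC-open difference passed with summit windows (6.38), at least 2 days (11.6) and subtraction of the difference at regions open in MEF and ESC (7.13), and ranged from 7.05 to 10.98 with a day left out, passing without day 8, but was 4.08 with equal peak numbers (exact permutation p = 0.148, adjusted p = 0.225). The deficit against the ESC-open set ranged from -13.9 to -8.33 with a day left out and was -7.99 with equal peak numbers.

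Within 50 bp of the summit, AP-1 was present in 9.78%, the octamer in 3.46%, SOX in 2.10% and the partial dimer site in 2.53% of members. The SOX share was 0.8287% at a minimum score of 100, and the partial dimer share 0.873% in windows without masked repeats. Start sites were near 14.5% of members at a minimum score of 100, 8.19% for protein-coding genes and 7.89% within 1 kb. Alternatives for the partial dimer site, and those without the Nanog exons or, for motifs, without NanogN70 day 3, were chosen after seeing the data.

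The paths were paired by day. No replicate block was fitted, since the ESC group alone has replicate numbers. Each path is 1 course with 1 library a day and MEF is 1 library, so closure in MEF has no replicate check. Depth is unknown, so weak open chromatin below the peak threshold counts as closed. Pileups are unscaled.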
